A study of Homo sapiens with 6 samples.

Results

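The RAB GTPases are the largest branch of the RAS superfamily. The 62 genes described here are all rows of the deposited table whose symbol is RAB followed by a number and at most 1 letter, out of 26475 rows in all. The choice used names and no measured value. RNA sequencing was done on HepG2, a hepatocellular line of human origin in which many genes of hepatocytes remain active, in cells expressing TAF2 (3 libraries) and in cells expressing eGFP, a fluorescent reporter protein (3 libraries). TAF2 is a subunit of TFIID, the complex that helps place RNA polymerase II at promoters. Both groups were growing cultures of the same line, and the labels give neither a treatment time nor the vector, and not whether a group is 1 clone. Nor do they say whether the 3 replicates were grown separately, so each p-value speaks only for variation among libraries, part or all of which could be technical.

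A RAB protein switches between a GDP-bound form held in the cytosol and a GTP-bound form that sits on one kind of membrane. Exchange factors load GTP, GTPase-activating proteins trigger its hydrolysis, and effectors such as tethers and motor adaptors bind the GTP form and move, dock or fuse vesicles. Lipid tails added by RAB geranylgeranyl transferase anchor the protein, and dedicated chaperones extract and recycle it. In hepatocytes this machinery carries newly made plasma proteins through the Golgi to the sinusoidal surface and sorts receptors and transporters between the sinusoidal and bile canalicular faces.

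Total counts ranged from 24631251 to 28024004 in TAF2 libraries and from 22276308 to 27137862 in eGFP libraries. TAF2 itself was at 50.1, 48.3 and 47.4 CPM (counts scaled to a common library total) in the TAF2 libraries, against 35.8, 40.4 and 37.5 CPM in the eGFP libraries, with no overlap (edgeR log2 fold change 0.36, SE 0.046, adjusted p = 1.44e-08). The 8 hepatocyte genes checked, ALB and AFP among them, were detected in every library and summed to between 38360 and 40170 CPM in TAF2 and between 47830 and 49330 CPM in eGFP libraries. Of the 8, APOB had the highest level and 7 were lower with TAF2, while FGB, for fibrinogen beta, was higher (91.8 ± 4.89 CPM with TAF2 and 58.9 ± 0.621 CPM with eGFP, SD, n = 3 each; log2 fold change 0.64). The 8 markers of leukocytes, fibroblasts and endothelium summed to between 55.6 and 58.8 CPM in TAF2 and between 55.2 and 57.6 CPM in eGFP libraries, with PTPRC at 0 in all 6. Most of that sum was CD68, at 35.8 ± 1.16 and 47.2 ± 1.76 CPM, and PDGFRB, at 19.5 ± 0.674 and 7.87 ± 0.860 CPM (TAF2 and eGFP, SD, n = 3 each). Their part in the results below was not tested. In such bulk samples, fewer cells of a type and less RNA per cell cannot be told apart.

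Taken over the family, the share of RAB genes called was close to that of all genes, and the largest changes were those of single members. RAB34, a Golgi and ciliary RAB, had no read in any TAF2 library. RAB26 and RAB30 had the largest falls among called members with reads in both groups, while the 6 members that rose did so by at most 1.16-fold. Of the 62 members 47 passed the filter on low counts and were tested. With TAF2, 6 were higher and 14 lower at an edgeR adjusted p below 0.05, or 42.6% of those tested, against 43.0% of all 12902 tested genes. Over all genes 20.6% were higher and 22.4% lower. The median log2 fold change was -0.03 over tested members and -0.00 over all tested genes. The libraries of the 2 groups did not overlap for 23 of the 47 members (48.9%), 8 with TAF2 above and 15 with TAF2 below, against 50.6% of all tested genes, 24.5% above and 26.1% below. The summed level of the 62 members was 2435, 2428 and 2433 CPM in TAF2 libraries, against 2465, 2494 and 2482 CPM in eGFP libraries. Of the 20 called members 17 changed by less than 1.5-fold, and their median absolute log2 fold change was 0.20, against 0.23 over all called genes. Tested against a 1.5-fold threshold, RAB34 and RAB26 were the members still called, and RAB34 had passed the low-count filter only through the eGFP libraries. RAB26 reached the filter's level of 0.397 CPM in all 3 eGFP libraries but in only 2 TAF2 libraries.

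**Figure D1:**
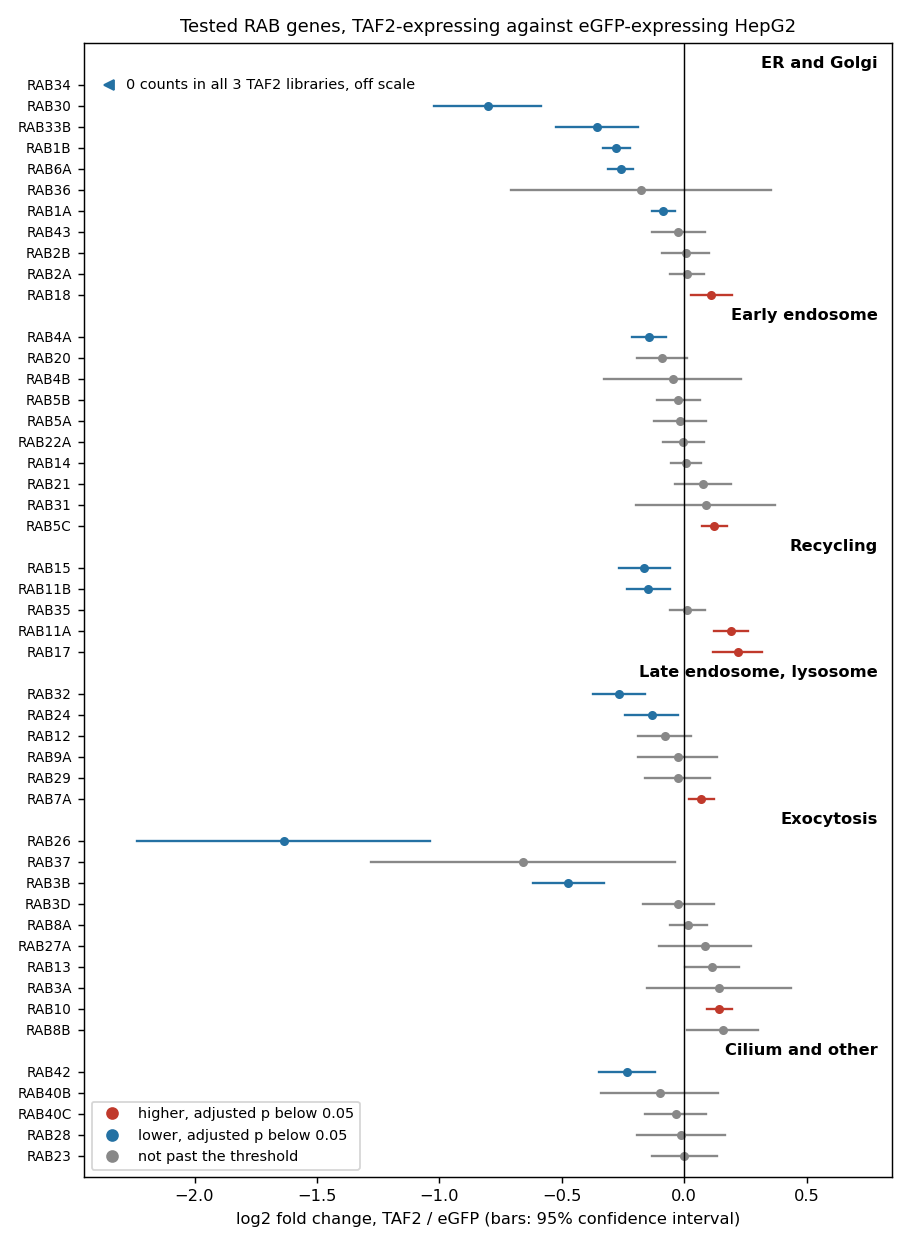
Log2 fold change (TAF2 over eGFP, x axis) with its 95% confidence interval for the 47 tested RAB genes, ordered within role classes; red and blue mark genes higher and lower in TAF2 libraries at an edgeR adjusted p below 0.05. RAB34 is off scale because it had 0 counts in TAF2 libraries, and 43 members lie within a 1.5-fold change.

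The stretches just before the transcription start are shown for the members with the largest falls and rises for which the RefSeq promoter table (GRCh38.p14) has an entry. For each the 250 bases before the outermost start are given 5′ to 3′ on the transcribed strand, and for RAB34 only the 90 of them that lie outside the gene. RAB34 (chr17:28718429-28718518, minus strand), RAB30 (chr11:83071898-83072147, minus strand) and RAB3B (chr1:51990701-51990950, minus strand) fell with TAF2. RAB17 (chr2:237590735-237590984, minus strand) and RAB11A (chr15:65869241-65869490, plus strand) rose. Capitals mark GC boxes (GGGCGG on either strand) and CCAAT boxes (CCAAT on either strand), and TATAAA was also searched on both strands.
RAB34: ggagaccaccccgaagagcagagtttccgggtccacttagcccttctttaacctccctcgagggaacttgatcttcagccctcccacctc
RAB30: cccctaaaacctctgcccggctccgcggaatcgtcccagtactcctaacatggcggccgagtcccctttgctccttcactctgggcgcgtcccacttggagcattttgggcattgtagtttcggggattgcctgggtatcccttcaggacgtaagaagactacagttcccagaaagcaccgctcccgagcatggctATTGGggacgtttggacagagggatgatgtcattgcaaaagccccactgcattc
RAB3B: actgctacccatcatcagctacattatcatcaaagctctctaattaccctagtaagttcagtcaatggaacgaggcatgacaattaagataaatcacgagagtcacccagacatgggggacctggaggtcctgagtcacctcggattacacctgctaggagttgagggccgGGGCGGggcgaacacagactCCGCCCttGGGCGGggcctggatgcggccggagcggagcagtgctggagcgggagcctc
RAB17: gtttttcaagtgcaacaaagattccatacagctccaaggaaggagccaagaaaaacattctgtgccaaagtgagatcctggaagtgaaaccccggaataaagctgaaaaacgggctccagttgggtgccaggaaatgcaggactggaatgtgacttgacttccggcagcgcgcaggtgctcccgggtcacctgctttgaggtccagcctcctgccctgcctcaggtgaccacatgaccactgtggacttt
RAB11A: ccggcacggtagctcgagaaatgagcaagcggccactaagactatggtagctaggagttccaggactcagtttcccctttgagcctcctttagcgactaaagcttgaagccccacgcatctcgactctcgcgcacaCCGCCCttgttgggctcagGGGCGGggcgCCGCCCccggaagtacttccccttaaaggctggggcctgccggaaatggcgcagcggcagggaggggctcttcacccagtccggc
RAB3B and RAB11A each held 3 GC boxes and RAB30 held 1 CCAAT box, while the windows of RAB34 and RAB17 held none of the 3 motifs. The RAB30 window overlaps the divergent transcript RAB30-DT of the RefSeq table. A promoter was found for 49 of the 62 members, and RAB26 was among those without one. Of the 49, 11 belonged to members not tested, so the 49 and the tested genes are not like sets. A GC box stood in 38 of the 49 (77.6%), against 67.0% of the promoters of all tested genes and 42.2% of 27305 promoters in all. CCAAT stood in 26.5% of member promoters, against 35.7% of those of tested genes and 33.0% of all. TATAAA stood in 3 of the 49 (6.12%, against 5.12% and 11.2%). All 3 were of members not tested, and no promoter of a tested member held TATAAA. By direction, a GC box was present for 5 of 6 members that rose, 7 of 10 that fell, 21 of 22 not called and 5 of 11 not tested.

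Of 18 RABs of the endoplasmic reticulum and Golgi 11 were tested; 6 were lower, 1 was higher and 4 were not called, against 22.4% lower and 20.6% higher of all tested genes. RAB30, RAB1B, RAB6A and RAB33B, 4 of the 6 that were lower, lie on chromosomes 11 and 4. With the start of chromosome 1, these make up the regions described further on, where 65.0% of all tested genes were lower. RAB34 (chromosome 17, 28714281 to 28718428, GRCh38.p14) sits on the Golgi and on the membranes that form the primary cilium. It had 0 counts in each TAF2 library, against 2.32, 1.48 and 1.804 CPM in the eGFP libraries, which is 141 reads in all. Set against the 3 counts over the group that a count of 0 allows (0.0384 CPM), RAB34 was at least 49.5-fold lower with TAF2 (edgeR adjusted p = 1.6e-13). It passed the low-count filter only through the eGFP libraries, so it had to differ to be tested at all. RAB30, a Golgi RAB (chromosome 11, 82973133 to 83071897), was at 6.97, 6.08 and 5.46 CPM with TAF2, against 9.29, 12.3 and 10.8 CPM with eGFP (log2 fold change -0.80, SE 0.107, edgeR adjusted p = 1.04e-07). Its highest TAF2 library lay below its lowest eGFP library.

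RAB1A and RAB1B, close paralogs that govern transport from the endoplasmic reticulum to the Golgi, both fell, RAB1B by more. RAB1B (chromosome 11, 66268639 to 66277492) was at 129, 128 and 131 CPM with TAF2 and at 154, 156 and 161 CPM with eGFP (log2 fold change -0.28, SE 0.027, edgeR adjusted p = 1.8e-11). RAB1A (chromosome 2) was at 276 ± 3.24 CPM with TAF2 and 293 ± 1.87 CPM with eGFP (SD, n = 3 each; log2 fold change -0.09, edgeR adjusted p = 0.00211). RAB1B therefore gave 32.0% ± 0.438 of the pair's summed CPM with TAF2 and 34.9% ± 0.406 with eGFP (SD, n = 3 each). RAB6A, which returns cargo from endosomes and Golgi towards the endoplasmic reticulum (chromosome 11, 73675638 to 73761074), was at 148, 150 and 150 CPM with TAF2 and at 179, 182 and 177 CPM with eGFP (-0.26, SE 0.026, edgeR adjusted p = 2.3e-11). For RAB1B and RAB6A, too, no TAF2 library reached the lowest eGFP library. RAB33B, which recruits the ATG16L1 complex in autophagy and acts at the Golgi (chromosome 4), fell by 0.36 on the log2 scale. It was at 9.57 ± 0.244 CPM with TAF2 and 12.3 ± 0.288 CPM with eGFP (SD, n = 3 each).

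RAB18, which acts on lipid droplets and the endoplasmic reticulum, was the one member of the class that rose, at 60.8 ± 0.906 CPM with TAF2 and 56.4 ± 3.51 CPM with eGFP (SD, n = 3 each; log2 fold change 0.11, edgeR adjusted p = 0.0275). RAB18 was not called without TAF2 replicate 1, TAF2 replicate 3 or eGFP replicate 1, nor with DESeq2 (DESeq2 adjusted p = 0.109). RAB2A, another RAB of early secretion (chromosome 8), was at 73.4 ± 1.12 CPM with TAF2 and 72.8 ± 1.49 CPM with eGFP (SD, n = 3 each). Its log2 fold change was 0.01, with a 95% interval of -0.06 to 0.08. RAB2B, RAB36 and RAB43 were not called either. RAB43 shares exons with the readthrough gene ISY1-RAB43 and its expected counts were not whole in all 6 libraries, so its level, near 55.4 CPM with TAF2 and 56.1 CPM with eGFP, is uncertain.

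**Figure D2:**
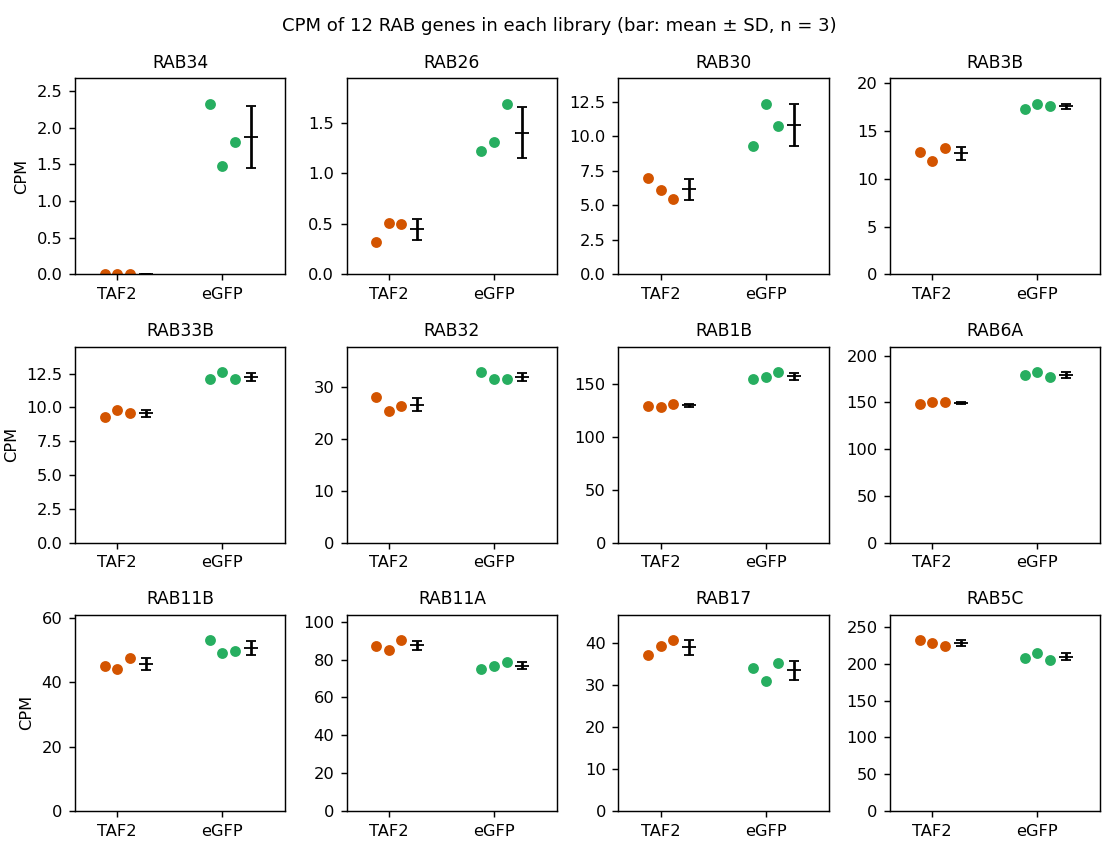
CPM (y axes, each from 0) of 12 RAB genes in the 3 TAF2 libraries (left) and the 3 eGFP libraries (right) of each panel; points are libraries and the bar gives mean ± SD. In every panel all TAF2 points lie on one side of all eGFP points, below them for RAB34 to RAB11B and above them for RAB11A, RAB17 and RAB5C.

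Within 150 kb of RAB34, 13 other genes were tested, of which 1 was higher, 2 were lower and 10 were not called, against 43.0% called of all tested genes. The ribosomal protein gene RPL23A, whose midpoint lies 5.82 kb away, was at 695 CPM with TAF2 and 692 CPM with eGFP. SUPT6H, a transcription elongation factor gene on the other side, was at 207 CPM with TAF2 and 206 CPM with eGFP. TLCD1, whose midpoint lies 9.79 kb away (log2 fold change -0.42), and ALDOC (-0.27) were lower and SGK494 (0.60) was higher. NARR, a gene the table lists over the same stretch as RAB34, had no read with TAF2 and a mean of 0.075 CPM with eGFP. Around RAB30, 3 of 5 tested neighbours fell, against 65.0% lower of all genes tested on chromosomes 4 and 11 and the start of chromosome 1. The 3 were RAB30-AS1 (-0.42), PRCP (-0.34) and PCF11 (-0.15). Their values were nearer 0 than that of RAB30, a difference that was not tested. Around RAB26 16 neighbours were tested, with 4 higher and 6 lower, against 20.6% higher and 22.4% lower of all tested genes. SNHG19, whose midpoint lies 3.92 kb away, was at 0.06, and ABCA3 at -1.25. All neighbours here were named after their values were seen.

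**Figure D3:**
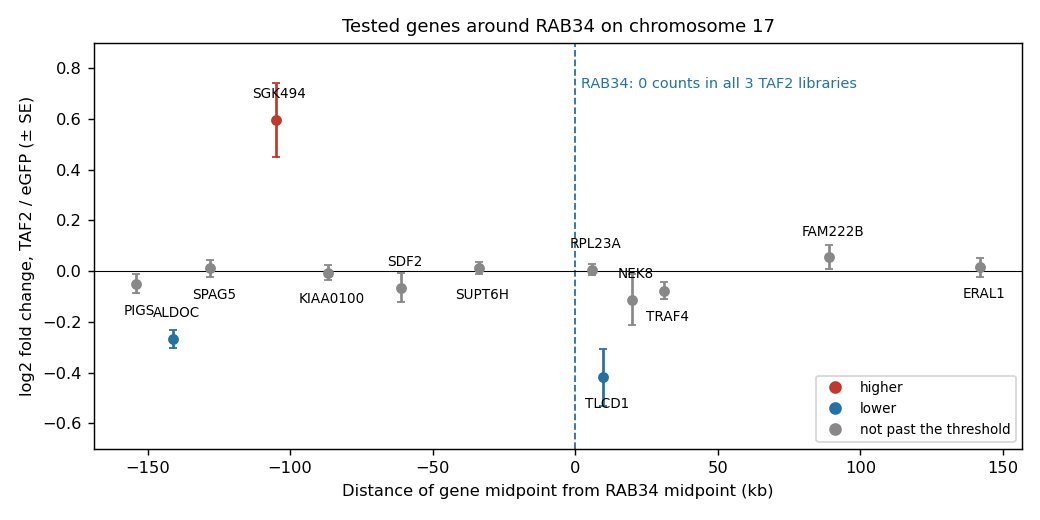
Log2 fold change (TAF2 over eGFP, y axis, ± SE) of the 13 tested genes within 150 kb of RAB34 against the distance between gene midpoints in kb. The dashed line marks RAB34, which had 0 counts with TAF2. RPL23A and SUPT6H lie at 0.01, and TLCD1, 9.79 kb away, lies at -0.42.

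All 10 RABs of the early endosome were tested, of which 1 rose, 1 fell and 8 were not called, against 43.0% called of all tested genes. The difference from other classes was not tested. RAB5C, a paralog of the early endosome fusion regulator RAB5A (chromosome 17, 42124979 to 42154989), was at 232, 228 and 225 CPM with TAF2, against 208, 215 and 206 CPM with eGFP (log2 fold change 0.12, SE 0.025, edgeR adjusted p = 7.28e-05). Every TAF2 library was above every eGFP library. RAB5A and RAB5B did not pass the threshold, with log2 fold changes of -0.02 (95% interval -0.12 to 0.09) and -0.03 (-0.11 to 0.06). RAB4A, which returns receptors rapidly from early endosomes to the surface (chromosome 1), was at 69.2, 68.0 and 67.9 CPM with TAF2, against 74.2, 76.3 and 76.1 CPM with eGFP (-0.14, SE 0.035, edgeR adjusted p = 0.000781), again without overlap. RAB14, which works between Golgi and endosomes, was at 109 ± 3.67 CPM with TAF2 and 108 ± 0.599 CPM with eGFP (SD, n = 3 each), although the overlapping gene GSN, for gelsolin, fell by 0.45 on the log2 scale. RAB20, RAB21, RAB22A, RAB31 and RAB4B were not called.

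Recycling RABs went both ways. Of 6 members 5 were tested, with 2 higher, 2 lower and 1 not called (80.0% called, against 43.0% of all tested genes). RAB11A, the main RAB of slow recycling endosomes (chromosome 15, 65869491 to 65891989), was at 87.3, 85.2 and 90.2 CPM with TAF2, against 75.1, 76.4 and 79.0 CPM with eGFP (log2 fold change 0.19, SE 0.034, edgeR adjusted p = 1.32e-05). Its paralog RAB11B (chromosome 19, 8390360 to 8404434) was at 45.2, 44.1 and 47.6 CPM with TAF2, against 53.0, 48.9 and 49.6 CPM with eGFP (-0.15, SE 0.043, edgeR adjusted p = 0.00537). For each of the 2 paralogs the groups did not overlap, in opposite directions. RAB11A accordingly made up 65.8% ± 0.271 of the pair's summed CPM with TAF2 and 60.3% ± 1.49 with eGFP (SD, n = 3 each). RAB11B was not called without TAF2 replicate 2 or eGFP replicate 1, nor with DESeq2 (DESeq2 adjusted p = 0.0555). Its antisense neighbour RAB11B-AS1 was at 2.04 CPM with TAF2 and 2.15 CPM with eGFP.

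RAB17, an epithelial RAB of polarised transport (chromosome 2, 237574326 to 237590734), had the largest rise of any member. It was at 37.1, 39.2 and 40.6 CPM with TAF2, against 34.1, 31.0 and 35.3 CPM with eGFP (log2 fold change 0.22, SE 0.050, edgeR adjusted p = 0.00042). RAB15 was at 33.9, 29.6 and 31.2 CPM with TAF2, against 35.7, 36.5 and 33.8 CPM with eGFP (-0.16, SE 0.051, edgeR adjusted p = 0.00887). It was the only called member whose groups overlapped, since its highest TAF2 library was just above its lowest eGFP library. It was not called without TAF2 replicate 2 or eGFP replicate 2, nor with DESeq2 (DESeq2 adjusted p = 0.0776). RAB35, which acts in fast recycling, was at 70.3 ± 1.43 CPM with TAF2 and 69.7 ± 1.68 CPM with eGFP (SD, n = 3 each; log2 fold change 0.01, 95% interval -0.06 to 0.08).

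Among RABs of late endosomes, lysosomes and autophagy 6 of 9 members were tested. Of these 1 was higher, 2 were lower and 3 were not called, against 43.0% called of all tested genes. RAB7A, which drives late endosome and autophagosome fusion with lysosomes (chromosome 3), was at 194, 196 and 196 CPM with TAF2, against 184, 189 and 186 CPM with eGFP (log2 fold change 0.07, SE 0.025, edgeR adjusted p = 0.0197). Its groups did not overlap, but RAB7A was not called without TAF2 replicate 2, TAF2 replicate 3, eGFP replicate 1 or eGFP replicate 3. RAB32, known for trafficking to lysosome-related organelles and for placement at mitochondria (chromosome 6), was at 27.9, 25.3 and 26.3 CPM with TAF2, against 32.7, 31.4 and 31.5 CPM with eGFP (-0.27, SE 0.052, edgeR adjusted p = 5.05e-05). All TAF2 libraries lay below all eGFP libraries. RAB24, linked to autophagy, was at 25.5, 24.5 and 25.4 CPM with TAF2, against 26.8, 28.8 and 27.1 CPM with eGFP (-0.13, SE 0.054, edgeR adjusted p = 0.0434). That call held only without eGFP replicate 1 among the 6 fits that left out a library, and not with DESeq2 (DESeq2 adjusted p = 0.204). RAB12, which acts in the degradation of the transferrin receptor, was at 32.8 ± 2.09 CPM with TAF2 and 34.7 ± 2.28 CPM with eGFP (SD, n = 3 each; log2 fold change -0.08, 95% interval -0.19 to 0.03). RAB9A, which returns receptors from late endosomes to the Golgi, and RAB29 were not called, both with a log2 fold change of -0.03.

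In the exocytosis class 10 of 13 members were tested. Of these 1 was higher, 2 were lower and 7 were not called, against 43.0% called of all tested genes. RAB26, a RAB of secretory granule maturation (chromosome 16, 2148144 to 2154165), was at 0.324, 0.510 and 0.4997 CPM with TAF2, against 1.22, 1.31 and 1.68 CPM with eGFP (log2 fold change -1.64, SE 0.296, edgeR adjusted p = 1.44e-05). No library of one group came near the other, but the TAF2 libraries held only 8, 13 and 14 reads of RAB26, and 1 of them was below the filter's level of 0.397 CPM. RAB3B, of the RAB3 group that primes regulated secretory vesicles (chromosome 1, 51907956 to 51990700), was at 12.9, 11.9 and 13.2 CPM with TAF2, against 17.3, 17.8 and 17.6 CPM with eGFP (-0.47, SE 0.071, edgeR adjusted p = 4.91e-07). Within RAB3 genes the fall was that of RAB3B. RAB3A (0.14, 95% interval -0.15 to 0.44) and RAB3D (-0.02, -0.17 to 0.12) were not called, and a difference between the paralogs was not tested. RAB3B held 40.6% ± 2.22 of the CPM of the 3 tested RAB3 genes with TAF2 and 48.9% ± 1.53 with eGFP (SD, n = 3 each).

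RAB10, which moves vesicles to the basolateral surface and inserts glucose transporters in insulin-responsive cells (chromosome 2), rose. It was at 200, 195 and 200 CPM with TAF2, against 179, 182 and 178 CPM with eGFP (log2 fold change 0.14, SE 0.025, edgeR adjusted p = 7.41e-06). RAB8A, its close relative in exocytosis and ciliary traffic, was at 62.6 ± 1.11 CPM with TAF2 and 62.0 ± 1.37 CPM with eGFP (SD, n = 3 each; log2 fold change 0.02, 95% interval -0.06 to 0.09). RAB8B (0.16, edgeR adjusted p = 0.0738) and RAB13 (0.11, edgeR adjusted p = 0.0908) were above eGFP in every TAF2 library without passing the threshold. RAB37 was at 0.590 ± 0.0521 CPM with TAF2 and 0.946 ± 0.258 CPM with eGFP (SD, n = 3 each; -0.66, edgeR adjusted p = 0.080), and was called without eGFP replicate 1. RAB27A, which docks exosome and granule membranes, had a log2 fold change of 0.09 (95% interval -0.10 to 0.27). In the remaining class of ciliary and less studied RABs 5 members were tested and 1 was called, against 43.0% of all tested genes. The called member was RAB42 (chromosome 1). It was at 23.9, 25.0 and 23.4 CPM with TAF2, against 30.3, 26.99 and 27.3 CPM with eGFP (-0.23, SE 0.056, edgeR adjusted p = 0.000736). RAB40C, a RAB with a SOCS box that recruits a ubiquitin ligase, was at 19.9 ± 0.760 CPM with TAF2 and 20.4 ± 0.978 CPM with eGFP (SD, n = 3 each), and RAB23, a negative regulator of Hedgehog signalling, RAB28 and RAB40B were not called either.

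The 15 members not tested were near or at 0. RAB19, RAB39A, RAB3C, RAB40A, RAB41 and RAB44 had 0 counts in all 6 libraries. RAB25, RAB27B, RAB33A, RAB38, RAB39B, RAB6B, RAB6C, RAB7B and RAB9B had at most 9 counts in any library. RAB38 had 1 count in each eGFP library and none with TAF2. Several of these, such as the epithelial RAB25 and the neuronal RAB3C, are known from other tissues.

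Dividing CPM by the median length of each gene's listed transcripts (GENCODE v29, lengths found for all 62) gave levels that can be set against each other. The highest was RAB1A, at 151 ± 1.78 CPM per kb with TAF2 and 161 ± 1.02 CPM per kb with eGFP, followed by RAB5C at 137 ± 2.10 and 125 ± 2.80 CPM per kb (TAF2 and eGFP, SD, n = 3 each). RAB7A was next with TAF2, at 87.0 ± 0.646 CPM per kb, above RAB6A at 71.5 ± 0.541 CPM per kb. With eGFP this order turned round, since RAB7A was at 82.9 ± 1.09 and RAB6A at 85.6 ± 1.35 CPM per kb (SD, n = 3 each). RAB1B came to 64.6 and RAB10 to 56.1 CPM per kb with TAF2, against 78.3 and 50.8 CPM per kb with eGFP. Which isoforms the cells used is not known, so these levels are approximate.

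The falls of several RABs were of the size seen over their whole chromosome. Among the other genes averaging 5 CPM or more, the median log2 fold change was -0.27 on chromosome 11 (589 genes) and -0.18 on chromosome 4 (354 genes), against 0.00 over all 10156 genes. RAB1B (-0.28) and RAB6A (-0.26) stood at the 47.5 and 51.6 percentiles of the genes of chromosome 11, next to its median, and RAB30 stood at the 3.57 percentile. On chromosome 4, RAB33B (-0.36) was at the 14.97 percentile and RAB28, a RAB of photoreceptor and ciliary traffic, at the 88.4 percentile, with a log2 fold change of -0.01. RAB42 (-0.23) lies in the first 30 Mb of chromosome 1, where the median was -0.17 over 251 genes. RAB17 (0.22) lies beyond 190 Mb on chromosome 2, where it was 0.21 over 181 genes. These regions had been picked out in earlier work on the same libraries. In those on chromosomes 1, 4 and 11, 5 of 6 tested members were lower and 0 higher, against 65.0% lower and 5.12% higher of all 1444 genes tested there. Elsewhere, leaving aside RAB17, 5 of 40 members were higher and 9 lower, against 21.9% higher and 17.2% lower of 10998 genes. The falls of RAB3B, RAB32, RAB26 and RAB34 lay on chromosomes whose medians were between -0.02 and 0.01. What part a shift of the whole chromosome had in each gene's change was not tested.

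**Figure D4:**
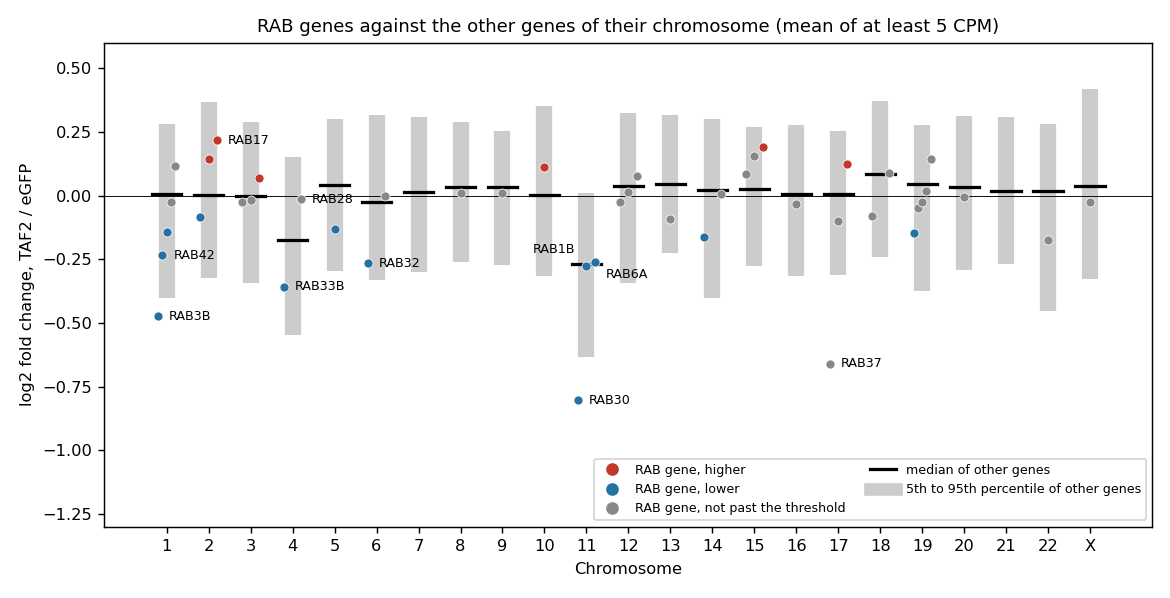
Log2 fold change (TAF2 over eGFP, y axis) of RAB genes by chromosome (x axis), coloured by call, over the median (black line) and the 5th to 95th percentiles (grey) of the other genes averaging 5 CPM or more; RAB34 and RAB26 lie below the axis and are left out. RAB1B and RAB6A sit on the lowered median of chromosome 11. RAB30, RAB3B and RAB37, the last not called and averaging under 5 CPM, fall below the grey range of their chromosomes.

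Genes that act on RAB proteins were changed in about the same share as genes in general (43.0%). Of 12 prenylation, processing and escort genes 2 rose and 4 fell, with a median log2 fold change of 0.02. RABGGTB, the catalytic subunit of RAB geranylgeranyl transferase, was at 112 ± 1.69 CPM with TAF2 and 99.3 ± 2.81 CPM with eGFP (log2 fold change 0.18, edgeR adjusted p = 5.44e-06). The CAAX-processing enzymes ICMT (-0.25, chromosome 1) and RCE1 (-0.30, chromosome 11, where the median was -0.27) fell. RABGGTA (0.02), CHM (-0.00) and CHML (0.17), the other subunit of that enzyme and its escort proteins, were not called, and were named after their values were seen.

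Of 54 tested exchange factor genes 12 rose and 14 fell (48.1%; median -0.01). The genes with the smallest p fell. They were DENND5A, an exchange factor for RAB39 with a RAB6-binding domain (-0.28), TRAPPC12 of the TRAPP complexes, which activate RAB1 and RAB11 (-0.24), and RINL (-0.48) and RIN1 (-0.32), which act on RAB5 proteins. DENND5A and RIN1 lie on chromosome 11. RAB3IL1, also on chromosome 11 and an exchange factor for RAB3A and RAB8, was at 3.55 CPM with TAF2 and 2.33 CPM with eGFP (0.60). CCZ1 (0.24) and CCZ1B (0.23), near-identical copies whose product activates RAB7 with MON1, rose, and reads cannot be assigned between them with certainty. Of 38 tested genes for GTPase-activating proteins 5 rose and 10 fell (39.5%; median -0.02). TBC1D2B was at 44.2 ± 2.63 CPM with TAF2 and 33.1 ± 1.89 CPM with eGFP (0.42, edgeR adjusted p = 5.05e-09). RABGAP1L was at 14.4 ± 0.799 CPM with TAF2 and 20.2 ± 1.03 CPM with eGFP (SD, n = 3 each; -0.49, edgeR adjusted p = 9.61e-08). TBC1D1, which restrains RAB10 in muscle (-0.25), and TBCK (-0.30) fell and lie on chromosome 4, while the related TBC1D4 rose by 0.14. RAB3IL1, CCZ1, CCZ1B and TBC1D4 were named after their values were seen.

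Of 60 tested effector genes 9 were higher and 18 lower (median -0.03). MYRIP, which links RAB27A on secretory granules to myosin motors (chromosome 3), fell to 0.0405, 0.0785 and 0.143 CPM with TAF2, against 4.61, 3.96 and 4.01 CPM with eGFP (log2 fold change -5.48, SE 0.308, edgeR adjusted p = 1.08e-18). All 3 TAF2 libraries were below the low-count filter's level of 0.397 CPM, so MYRIP passed only through the eGFP libraries and had to differ to be tested. RAB27A itself was not called. USO1, the tether p115 that RAB1 recruits to Golgi-bound vesicles (chromosome 4), was at 153, 142 and 141 CPM with TAF2, against 180, 190 and 187 CPM with eGFP (-0.35, SE 0.029, edgeR adjusted p = 8.68e-13). UNC13D, the RAB27 effector of granule release (-0.28), and RABEPK, which binds RAB9 (-0.33), also fell. Of the 5 RAB11FIP genes, which encode adaptors of RAB11 on recycling endosomes, RAB11FIP5 (0.32) and RAB11FIP4 (0.20) rose, and RAB11FIP1 (-0.03), RAB11FIP2 (0.10) and RAB11FIP3 (-0.03) were not called. MYO5B, the myosin motor that RAB11 recruits, fell by 0.18. These 6 genes were named after their values were seen. With DESeq2, 17 effector genes were called in place of 27. Other genes with large changes were also named after their values were seen. From the effector list they were OSBPL1A (-2.57), whose product binds RAB7, and LRRK1 (-1.09). The others were the GTPase-activating protein genes TBC1D30 (-1.64) and TBC1D10C (0.65), and the exchange factor gene DENND6B (-0.96). OSBPL1A, LRRK1 and TBC1D30 were below 0.397 CPM in every TAF2 library and passed the filter only through eGFP, so their values describe genes that had to differ to be tested.

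**Figure D5:**
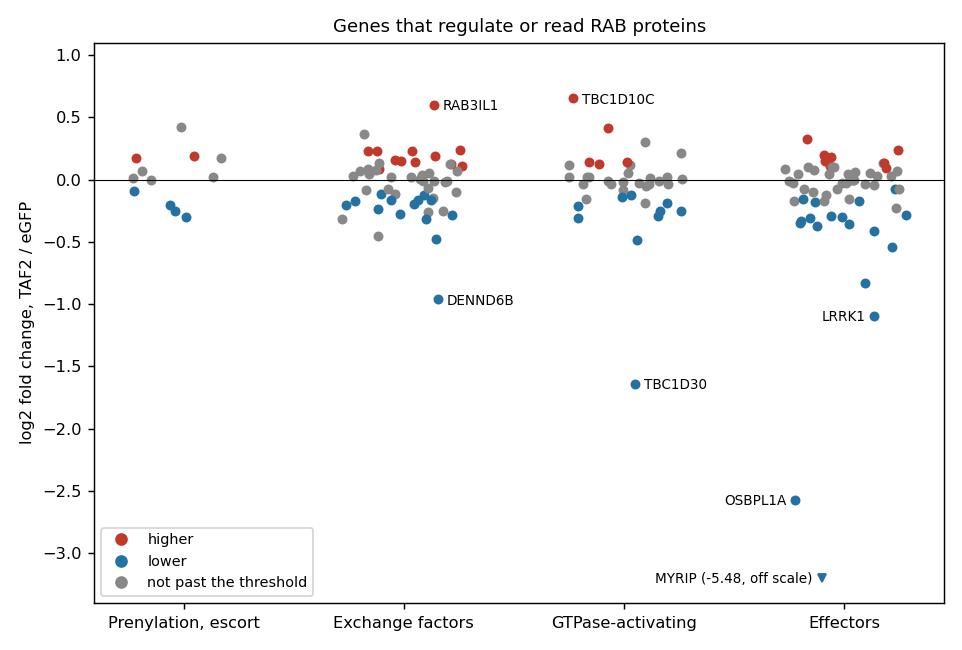
Log2 fold change (TAF2 over eGFP, y axis) of each tested gene in 4 lists of RAB regulators and effectors, coloured by call; horizontal position within a list is arbitrary. MYRIP (-5.48) lies below the axis and is drawn as a triangle near its lower end, and most other genes lie close to 0.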

How the data were processed

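Of the 6 libraries analysed, 3 were of TAF2-expressing and 3 of eGFP-expressing HepG2. TruSeq libraries of total RNA were run on a HiSeq3000 in repeated rounds, per the labels' protocols. What the authors deposited is a single gene table of RSEM expected counts that lists RefSeq accessions; RSEM and the build hg38 come from the submitters' processing notes. For the aligner, annotation release and strand setting the sources used here give nothing. RSEM divides shared reads by probability, and 5 members (RAB34, RAB43, RAB4B, RAB6A and RAB6C) had values that were not whole. Without strand, overlapping genes cannot be told apart, which touches 12 tested members, 4 of them called.

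Expected counts were rounded, filtered with filterByExpr, scaled by TMM and fitted on all 12902 remaining genes with the group alone in edgeR 4.0.16 (R 4.3.3; glmQLFit, robust, and glmQLFTest). Benjamini-Hochberg adjustment covered every tested gene, and calls needed an adjusted p below 0.05. The common dispersion was 0.000758, so small differences can pass. Fold changes are TAF2 over eGFP, and SE is the log2 fold change over the root of F. Where a gene was at 0 in a group, 3 counts over that group gave the bound, which covers counting error only. Genes were placed on GRCh38.p14 by accession (98.1% of tested genes). The script was tested on simulated counts. Per-sample columns left unused numbered 0.

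In each class called members are named, with library values for up to 4 of smallest p and for called changes of at least 0.5 (log2), and the uncalled member of highest CPM. In each list up to 4 called genes of smallest p are named. A gene this rule picks is not reported here. Members, classes, lists and rules were chosen with earlier results of these data known. Alternatives were other scalings, filters, DESeq2 1.42.0, a replicate block, a test against 1.5-fold and leaving out each library.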

Additional observations from a re-analysis of the deposited data

How the results depend on the processing

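The counts of RAB members held within 1.5 times under other scalings, other filters, DESeq2, the replicate block and every left-out library. Without 1 library, 4 to 6 members were higher and 11 to 14 lower. Over the same fits 4800 to 5288 of all genes, 5 to 6 prenylation and escort genes, 22 to 25 exchange factors, 13 to 17 GTPase-activating proteins and 20 to 26 effectors were called, and the log2 fold change of TAF2 kept its call. Against a 1.5-fold change 373 of all genes were called, with 0 RAB members higher, 2 lower, 0 prenylation and escort genes, 0 exchange factors, 0 GTPase-activating proteins and 2 effectors, and TAF2 (0.36) was not called; that test asks for more by construction. DESeq2 called 17 effectors and 16 RAB members, without RAB11B, RAB15, RAB18 and RAB24. The cause was not tested. Of the 20 called members, 15 were called under all 13 settings other than the 1.5-fold test; RAB24 (3 of 13), RAB7A (9), RAB18 (9), RAB11B (10) and RAB15 (10) were not. Upper-quartile scaling, under which 3001 genes were higher and 2675 lower, added RAB8B.

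The replicate numbers pair the libraries by label only. Deviations from the group means correlated at -0.0446, -0.0905 and -0.103 between libraries of the same number. With a replicate block 5250 genes and 19 RAB members (6 higher, 13 lower) were called, RAB24 being the one not called. Members near 1 CPM such as RAB26, RAB36 and RAB37 rest on few reads, and changes in them smaller than their intervals were not detectable at this depth.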
